A study of Mus musculus with 12 samples.

Results

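The genes described here are 38 genes of the unfolded protein response and of protein entry, folding, degradation and export at the endoplasmic reticulum (ER), read out of a table of 26121 genes by gene symbol. All 38 were found. Trib3 and Chac1, both targets of the transcription factor ATF4, were dropped because more than 9 of the 12 libraries had a deposited log2 value below 0, and the other 36 were kept. All 36 were among the 14180 genes tested. The RNA came from kidney dendritic cells of wild-type males, 6 mice of 8 to 12 weeks in all. Of these, 3 were healthy and 3 had nephrotoxic nephritis, a glomerulonephritis brought on by an antiserum against kidney that they had received 7 days earlier. Each animal gave a CD103+ and a CD11b+ sort, so there were 4 groups with 3 libraries in each: CD103+ healthy, CD103+ inflamed, CD11b+ healthy and CD11b+ inflamed. All 12 samples had gone through the same warm collagenase digestion and enrichment of CD45+ cells on beads before sorting.

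The ER folds proteins that a cell secretes or displays, and 3 membrane sensors respond when unfolded protein accumulates there. IRE1 (gene Ern1) splices Xbp1 mRNA into the message of a transcription factor, PERK (Eif2ak3) slows translation and favours ATF4, and ATF6 is cut to release a transcription factor of its own. XBP1 and ATF6 act on chaperones, disulfide isomerases and ER-associated degradation genes, while ATF4 acts on amino acid synthesis and on Ddit3, which encodes CHOP. In mouse dendritic cells of the conventional type 1, which in kidney carry CD103, IRE1 is known to be active without added stress. Counts per gene do not show Xbp1 splicing, ATF6 cleavage or any protein, so only mRNA levels are described.

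Some of the promoters hold sequences through which the pathway is known to act. RefSeq promoter windows (GRCm38.p6, 250 bases before to 50 after the start) were matched for 32 of the 38 genes in 33 windows. The ER stress response element, ERSE (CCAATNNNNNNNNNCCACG, both strands), bound by ATF6 together with NF-Y, was in 8 of the 33 windows (24.2%), against 39 of all 32851 windows (0.119%). ERSE-II (ATTGGNCCACG) was in 2 of the 33 (6.06%), against 0.0365% of all windows, the unfolded protein response element UPRE (TGACGTGG) in 0, against 0.676%, and the C/EBP-ATF element bound by ATF4 (TGATGNAA) in 4 (12.1%), against 3.97%. The 4 were Asns, Herpud1, Trib3 and Chac1. The matches to ERSE and ERSE-II are shown because they are a sequence feature shared by 10 of the genes. The genes were chosen as members of the pathway that acts through these elements. Their higher share than over all windows is therefore no independent result. Each is written 5′ to 3′ in the direction of the element, with its fixed letters in capitals, and the position is that of the match's leftmost base on the gene's strand, counted from the start.
Calr (ERSE, opposite strand, first base at -162): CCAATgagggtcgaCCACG
Canx (ERSE, gene strand, first base at -145): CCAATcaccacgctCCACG
Creld2 (ERSE, opposite strand, first base at -126): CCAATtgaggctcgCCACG
Dnajc3 (ERSE, gene strand, first base at -105): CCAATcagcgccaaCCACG
Hsp90b1 (ERSE, gene strand, first base at -212): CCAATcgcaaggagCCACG
Hsp90b1 (ERSE, opposite strand, first base at -107): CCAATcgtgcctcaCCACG
Hspa5 (ERSE, gene strand, first base at -65): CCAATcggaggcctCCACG
Pdia6 (ERSE, gene strand, first base at -98): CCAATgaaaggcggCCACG
Syvn1 (ERSE, gene strand, first base at -44): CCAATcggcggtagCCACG
Dnajb11 (ERSE-II, gene strand, first base at 8): ATTGGcCCACG
Herpud1 (ERSE-II, gene strand, first base at -52): ATTGGgCCACG

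The whole windows of 5 genes are shown because the results turn on them: Hspa5, Hsp90b1 and Pdia6 hold ERSE in capitals, and Sdf2l1 and Pdia3 hold none of the 4 elements. They run 5′ to 3′ on the gene's strand. Some hold looser forms of the element that the exact letters do not match, and no match says only that these letters are not in the window.
Hspa5 (chr2:34771840-34772139, plus strand): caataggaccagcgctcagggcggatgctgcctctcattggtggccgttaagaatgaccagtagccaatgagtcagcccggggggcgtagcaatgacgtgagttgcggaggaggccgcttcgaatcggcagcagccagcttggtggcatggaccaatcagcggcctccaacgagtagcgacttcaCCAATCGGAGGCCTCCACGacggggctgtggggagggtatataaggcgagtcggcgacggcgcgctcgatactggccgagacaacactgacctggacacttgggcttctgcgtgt
Hsp90b1 (chr10:86705395-86705694, minus strand): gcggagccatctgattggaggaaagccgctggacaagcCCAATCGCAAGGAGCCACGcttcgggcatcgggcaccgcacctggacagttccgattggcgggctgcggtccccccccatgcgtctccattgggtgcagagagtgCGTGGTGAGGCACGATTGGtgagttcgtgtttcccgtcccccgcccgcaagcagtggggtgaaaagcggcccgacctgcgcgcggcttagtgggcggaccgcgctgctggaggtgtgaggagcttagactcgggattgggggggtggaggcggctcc
Pdia6 (chr12:17266339-17266638, plus strand): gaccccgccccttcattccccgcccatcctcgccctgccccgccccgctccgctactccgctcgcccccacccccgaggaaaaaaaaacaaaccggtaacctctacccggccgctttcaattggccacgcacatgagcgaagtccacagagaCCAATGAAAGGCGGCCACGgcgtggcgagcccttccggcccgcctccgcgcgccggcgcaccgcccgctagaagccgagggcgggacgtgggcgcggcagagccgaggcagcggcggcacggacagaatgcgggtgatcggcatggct
Sdf2l1 (chr16:17132334-17132633, minus strand): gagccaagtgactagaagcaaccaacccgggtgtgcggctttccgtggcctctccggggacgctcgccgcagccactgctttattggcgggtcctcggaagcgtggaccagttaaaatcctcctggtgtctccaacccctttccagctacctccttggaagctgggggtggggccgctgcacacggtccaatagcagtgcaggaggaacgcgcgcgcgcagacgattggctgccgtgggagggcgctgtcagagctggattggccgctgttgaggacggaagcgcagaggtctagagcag
Pdia3 (chr2:121413652-121413951, plus strand): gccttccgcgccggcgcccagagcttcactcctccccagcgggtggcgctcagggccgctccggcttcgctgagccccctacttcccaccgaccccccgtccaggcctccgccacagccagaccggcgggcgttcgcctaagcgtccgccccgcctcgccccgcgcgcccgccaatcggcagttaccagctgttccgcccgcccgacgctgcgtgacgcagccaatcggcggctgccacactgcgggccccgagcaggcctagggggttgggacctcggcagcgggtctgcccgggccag

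The libraries held 11486182 to 26556814 reads in genes, so that 3 reads stood for 0.112 to 0.254 CPM (reads per 1000000 of the scaled library). The sorted cells carried the markers of their labels. A list of 10 markers of type 1 dendritic cells summed to 2124 to 3375 CPM in CD103+ healthy and to 6013 to 7097 in CD103+ inflamed libraries. In the CD11b+ libraries these 10 summed to 546 to 734 CPM. The sum of 7 markers of type 2 cells was 38.4 to 79.8 CPM in the CD103+ and 2759 to 3934 in the CD11b+ libraries. The CD103+ healthy libraries stood apart. A list of 15 kidney tubule markers took 3.19 to 5.07% of their reads, against 0.722 to 1.87% in CD11b+ healthy, 0.356 to 0.421% in CD103+ inflamed and 0.364 to 0.618% in CD11b+ inflamed libraries, and mitochondrial genes took 9.41 to 11.4% against 1.81 to 3.68% in the other 9 libraries. The mRNA of Ptprc, the leukocyte antigen CD45, was at 307, 177 and 488 CPM in CD103+ healthy cells, at 1103, 1009 and 780.5 in CD11b+ healthy, at 1269, 1304 and 1190 in CD103+ inflamed and at 1653, 1657 and 1459 in CD11b+ inflamed cells. CD103+ healthy replicate 2 had the most tubule and the least Ptprc RNA. Every comparison is therefore given as deposited and again relative to the Ptprc value of the same library. In bulk RNA of this kind, fewer cells of a type and less RNA per cell cannot be told apart.

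**Figure D1:**
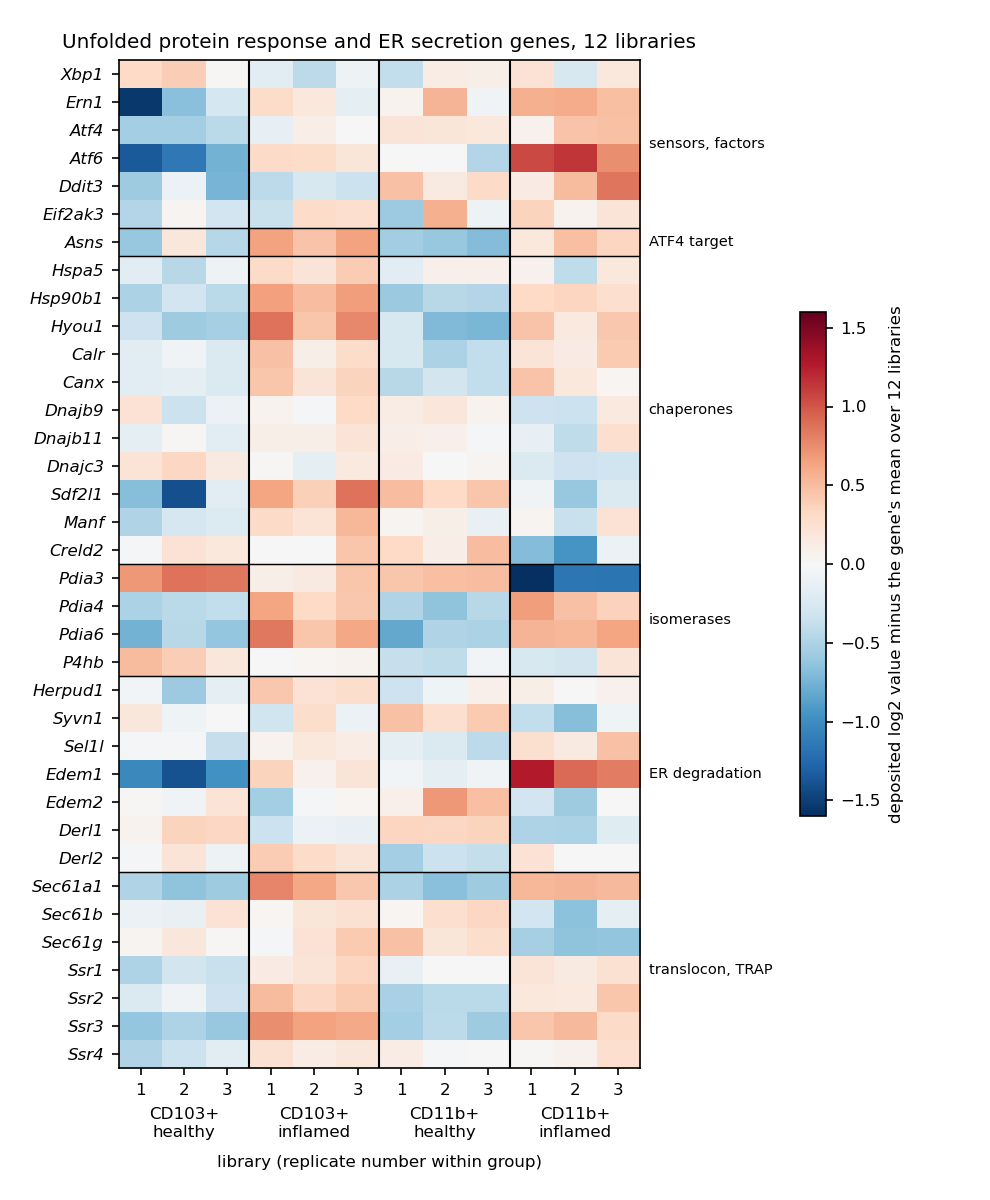
Deposited log2 values of the 36 genes in the 12 libraries, each centred on the gene's mean over all libraries; rows are genes ordered by role, columns are libraries, and colours saturate at the ends of the bar. Pdia3 is lowest in the 3 CD11b+ inflamed libraries (98.1 to 202 CPM), and Edem1 and Atf6 are highest there.

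Together the 36 genes summed to 5855 ± 47.6 CPM in CD103+ healthy cells (SD, n = 3, as for all values given with ± and CPM), 5734 ± 236 in CD11b+ healthy, 8424 ± 499 in CD103+ inflamed and 7398 ± 344 in CD11b+ inflamed cells. The sums of the inflamed libraries lay above those of all healthy libraries in both subsets. Per kilobase of exon, the most abundant members were those of luminal folding: Pdia3 at 250 ± 15.7 CPM per kb, Hspa5 at 182 ± 23.2 and Canx at 160 ± 5.29 in CD103+ healthy cells. The sensor Ern1 was the lowest of the 36 there, at 0.646 ± 0.263 CPM per kb. In CD11b+ inflamed cells Canx led at 212 CPM per kb and Pdia3 was at 53.2.

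The comparison of inflamed with healthy kidney asks how the genes changed in each subset after antiserum. In CD103+ cells 20 of the 36 rose and 3 fell as deposited (limma, Benjamini-Hochberg adjusted p under 0.05 over all genes tested), against 34.6% higher and 27.8% lower among all genes. In CD11b+ cells 14 rose and 9 fell, against 20.1% and 15.8%. The median log2 difference of the 36 was 0.50 in CD103+ and 0.18 in CD11b+ cells, and that of all genes tested 0.16 and 0.08. A group of 12 genes rose in both subsets: the sensor gene Atf6, the ATF4 target Asns, the chaperones Hsp90b1, Hyou1, Calr and Canx, the isomerases Pdia4 and Pdia6, the degradation factor Edem1, and Sec61a1, Ssr2 and Ssr3 of the translocon. Pdia3 and Derl1 fell in both, and Sdf2l1 rose in CD103+ and fell in CD11b+ cells. How many of all genes rose or fell in both subsets was not counted. Shared calls, here and below, therefore stand without a background share.

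**Figure D2:**
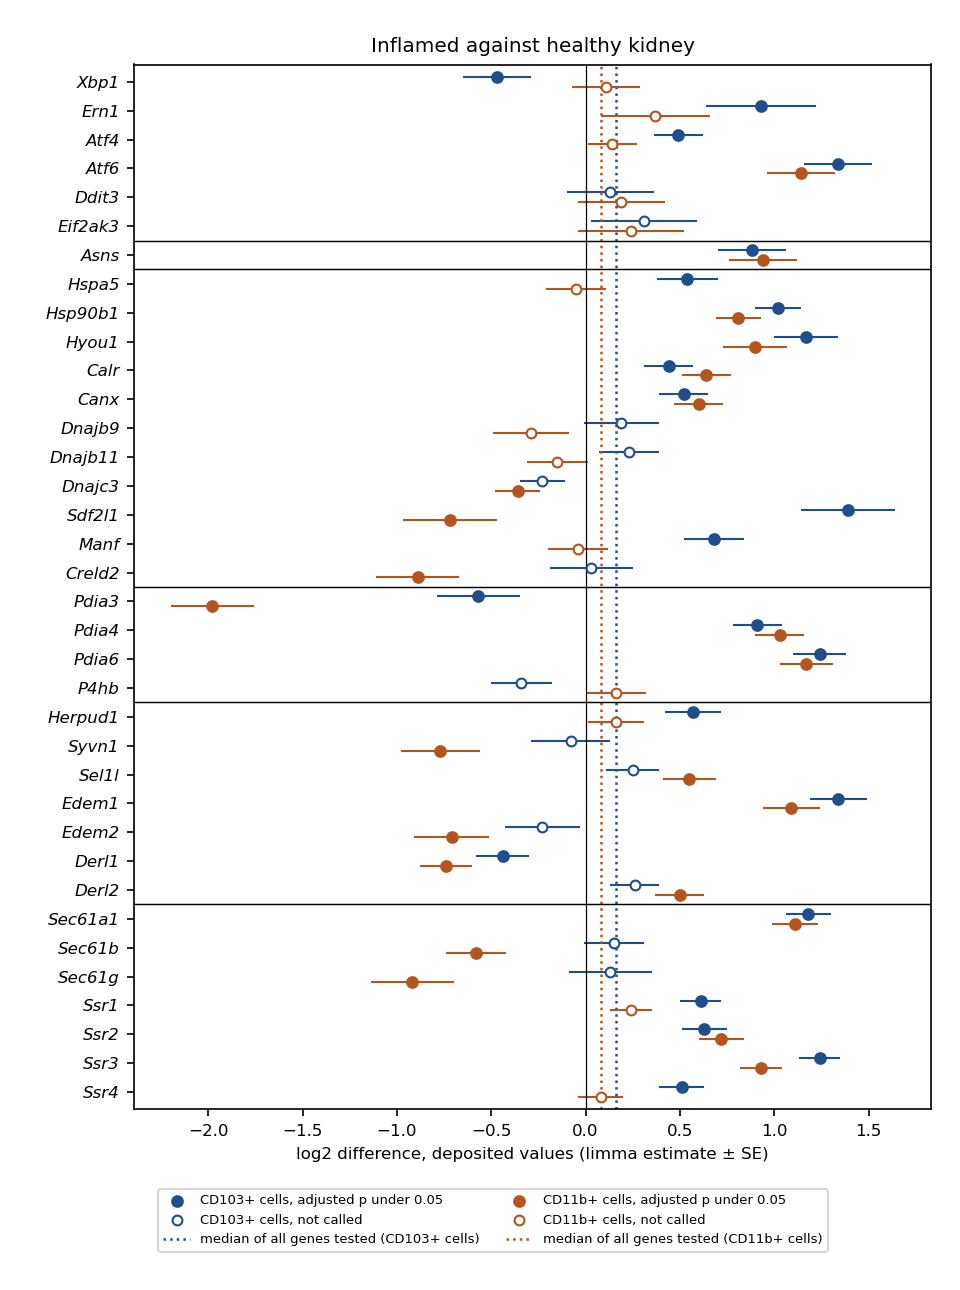
Log2 differences between inflamed and healthy kidney (limma estimate ± SE, deposited values) of the 36 genes in CD103+ cells (blue) and CD11b+ cells (orange); filled points have an adjusted p under 0.05, dotted lines are the medians of all 14180 genes tested, and horizontal lines separate the roles. Atf6, Edem1, Pdia6 and Sec61a1 lie to the right in both subsets, Pdia3 lies far to the left in CD11b+ cells, and Sdf2l1 lies on opposite sides of 0.

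Among the sensors and factors, Atf6 stood at 24.0, 27.5 and 35.7 CPM in the CD103+ healthy libraries and at 75.2, 74.2 and 68.8 in the CD103+ inflamed ones. In CD11b+ cells it stood at 60.3, 60.4 and 43.7 CPM in healthy and 126, 133 and 101 in inflamed libraries. The inflamed libraries lay above the healthy ones in both subsets without overlap. Of the 14180 genes tested, 5326 lay above and 4387 below without overlap in CD103+ cells, and 4002 and 3252 in CD11b+ cells. This background applies wherever overlap of inflamed and healthy libraries is given below. Atf6 rose by 1.34 ± 0.18 on the log2 scale in CD103+ cells (limma estimate ± SE, as for all log2 differences; adjusted p = 1.92e-05) and by 1.14 ± 0.18 in CD11b+ cells (adjusted p = 3.18e-04).

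Xbp1, the factor downstream of IRE1, moved the other way in CD103+ cells. Its levels were 109, 114 and 88.5 CPM in CD103+ healthy and 76.4, 65.4 and 82.4 in CD103+ inflamed libraries. In CD11b+ cells they were 66.1, 94.5 and 93.1 in healthy and 103, 73.2 and 97.8 in inflamed libraries, which overlap. Xbp1 mRNA fell by 0.47 ± 0.18 in CD103+ cells (adjusted p = 0.0321), and the difference in CD11b+ cells was 0.11 ± 0.18 (adjusted p = 0.652). The difference between these responses was 0.58 ± 0.25 as deposited (adjusted p = 0.0841), which passed without CD103+ healthy replicate 3 or CD11b+ inflamed replicate 2 and ranged from 0.42 to 0.74 over 20 alternatives. Relative to Ptprc it was 1.92 ± 0.56 (adjusted p = 0.0165) and passed in all 16 alternatives run on that scale. Ptprc itself rose more in CD103+ cells, which shifts this difference up for every gene. On that scale 37.2% of all genes were called higher and 0.480% lower. The fall in CD103+ cells lost its call in 6 of 20 alternatives, among them the removal of CD103+ healthy replicate 1 or 2 or of CD103+ inflamed replicate 1 or 2. Its adjusted p ranged from 0.00565 to 0.125 over the 20.

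Ern1, which encodes IRE1, was low: 3.00, 5.55 and 7.28 CPM in CD103+ healthy, 10.8, 9.94 and 7.90 in CD103+ inflamed, 9.13, 12.9 and 8.5 in CD11b+ healthy and 13.1, 13.4 and 12.4 in CD11b+ inflamed libraries. It rose by 0.93 ± 0.29 in CD103+ cells (adjusted p = 0.0135), while the difference in CD11b+ cells was 0.37 ± 0.29 (adjusted p = 0.342). Atf4 was at 43.9, 44.1 and 47.5 CPM in CD103+ healthy, 58.3, 68.9 and 64.0 in CD103+ inflamed, 74.2, 73.7 and 72.4 in CD11b+ healthy and 67.5, 88.4 and 89.0 in CD11b+ inflamed libraries. It rose by 0.49 ± 0.13 in CD103+ cells (adjusted p = 0.0051), where the groups do not overlap. The CD11b+ groups overlap (0.14 ± 0.13, adjusted p = 0.43). The rise of Ern1 lost its call without CD103+ healthy replicate 1 (adjusted p = 0.0655) or CD103+ inflamed replicate 1 (0.0522), and that of Atf4 under quantile normalization (0.0722).

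Ddit3 and the PERK gene Eif2ak3 passed the test in neither subset. Ddit3 stood at 7.48, 10.4 and 6.67 CPM in CD103+ healthy, 8.33, 9.26 and 8.77 in CD103+ inflamed, 15.5, 12.3 and 13.8 in CD11b+ healthy and 12.2, 15.9 and 20.1 in CD11b+ inflamed libraries. Eif2ak3 stood at 9.41, 13.4 and 10.6 CPM in CD103+ healthy, 10.2, 16.0 and 15.8 in CD103+ inflamed, 8.70, 19.3 and 12.3 in CD11b+ healthy and 16.7, 13.5 and 15 in CD11b+ inflamed libraries. Their inflamed and healthy libraries overlapped in both subsets. Of the ATF4 targets, Asns, which makes asparagine, went from 31.2 ± 9.53 to 56.0 ± 3.97 CPM in CD103+ cells and from 24.4 ± 1.17 to 47.1 ± 5.07 in CD11b+ cells (log2 differences 0.88 ± 0.18 and 0.94 ± 0.18). The dropped genes Trib3 and Chac1 were at or below 1.24 and 1.03 CPM in every library.

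Of the 11 chaperones and cofactors, 7 rose and none fell in CD103+ cells, against 34.6% and 27.8% of all genes. In CD11b+ cells 4 rose and 3 fell, against 20.1% and 15.8%. The difference between the responses was called for 3 of the 11 (Sdf2l1, Manf and Creld2), and 4 (Hsp90b1, Hyou1, Calr and Canx) rose in both subsets. All 3 had a lower response in CD11b+ cells, as had 17.7% of all genes. Hspa5, which encodes the chaperone BiP, went from 769.9 ± 98.3 to 1112 ± 77.8 CPM in CD103+ cells, a rise of 0.54 ± 0.16 (adjusted p = 0.0112). In CD11b+ cells it was at 895 ± 90.4 and 876 ± 174 CPM (-0.05 ± 0.16, adjusted p = 0.85). Hsp90b1, the ER form of HSP90 that folds Toll-like receptors and integrins, rose by 1.02 ± 0.12 and 0.81 ± 0.12 in CD103+ and CD11b+ cells. Hyou1, an exchange factor for BiP, rose by 1.17 ± 0.17 and 0.90 ± 0.17. The lectin chaperones Calr and Canx, which hold glycoproteins and MHC class I heavy chains, rose by 0.44 and 0.52 in CD103+ and by 0.64 and 0.60 in CD11b+ cells. Part of the Hsp90b1 exons, 15.7% of their length, overlaps other genes. The overlap was 12.8% for Ssr2, 10.9% for Ddit3, 9.25% for Manf, 8.16% for Sec61a1 and 8.05% for Eif2ak3. Quantile normalization ended the calls of Hspa5 (adjusted p = 0.122), of Calr (0.225 and 0.121) and of Canx (0.0533 and 0.106) in CD103+ and, for Calr and Canx, CD11b+ cells, and without CD103+ inflamed replicate 1 Calr lost its call in CD103+ cells (0.0593).

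Sdf2l1, a cofactor of BiP, had the largest difference of the 36 in CD103+ cells. It was at 29.0, 17.5 and 40.9 CPM in CD103+ healthy and at 72.2, 60.5 and 85.2 in CD103+ inflamed libraries, without overlap. In CD11b+ cells it was at 65.2, 58.0 and 63.1 CPM in healthy and at 44.5, 30.5 and 39.5 in inflamed libraries, again without overlap but in the opposite order. It rose by 1.39 ± 0.25 in CD103+ cells (adjusted p = 2.89e-04) and fell by 0.72 ± 0.25 in CD11b+ cells (adjusted p = 0.0382). The difference between the responses was -2.11 ± 0.35 (adjusted p = 9.43e-04) and stayed past the threshold in all 20 alternatives. The fall in CD11b+ cells lost its call in 7 of 20 (adjusted p from 0.00642 to 0.155), which were no filter and the removal of any CD11b+ healthy library, of CD11b+ inflamed replicate 2 or 3 or of CD103+ inflamed replicate 1. The rise depended on the scale: relative to Ptprc, Sdf2l1 was lower in inflamed CD103+ cells too (-0.68 ± 0.29), and the difference between responses was -0.77 ± 0.41 (adjusted p = 0.133). That lower call in CD103+ cells was lost in several alternatives, among them a leukocyte list in place of Ptprc and the removal of CD103+ healthy replicate 1.

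Manf, a secreted ER stress protein, rose by 0.68 ± 0.16 in CD103+ cells, and its difference in CD11b+ cells was -0.04 ± 0.16. Creld2, another secreted target of the pathway, was at 25.5 ± 2.35 and 26.2 ± 4.86 CPM in CD103+ cells and fell from 29.1 ± 3.97 to 16.1 ± 5.15 in CD11b+ cells (-0.89 ± 0.22). Dnajc3, which restrains PERK, fell by 0.36 ± 0.12 in CD11b+ cells. The BiP partners Dnajb9 and Dnajb11 passed the test in neither subset. The fall of Dnajc3 lost its call with no filter (adjusted p = 0.0716). It also lost it without CD11b+ healthy replicate 1 or 3 or any CD11b+ inflamed library, with adjusted p values up to 0.1.

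The disulfide isomerases moved apart from each other. Pdia6, which reshuffles disulfide bonds and binds BiP, stood at 290, 359 and 317 CPM in CD103+ healthy and at 879, 665 and 751 in CD103+ inflamed libraries. In CD11b+ cells it stood at 278, 349 and 344 in healthy and at 715, 707 and 756 in inflamed libraries. All inflamed libraries lay above all healthy ones, and Pdia6 rose by 1.24 ± 0.14 in CD103+ cells (adjusted p = 5.98e-06) and by 1.17 ± 0.14 in CD11b+ cells (adjusted p = 5.96e-05). Pdia4 rose by 0.91 ± 0.13 and 1.03 ± 0.13. P4hb differed by -0.34 ± 0.16 and 0.16 ± 0.16, neither past the threshold.

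Pdia3, which encodes ERp57, the isomerase that works with calnexin and calreticulin and is part of the MHC class I peptide-loading complex, went down in both subsets. The gene lies on chromosome 2 (GRCm38, 121413775 to 121438687, plus strand). It was at 727, 818 and 807 CPM in CD103+ healthy and at 479.5, 499 and 611 in CD103+ inflamed libraries, and at 613, 628 and 633 in CD11b+ healthy and 98.1, 202 and 201 in CD11b+ inflamed libraries. In both subsets no inflamed library reached the level of a healthy one, and the CD11b+ inflamed libraries were the lowest of the 12. Pdia3 fell by 1.98 ± 0.22 in CD11b+ cells (adjusted p = 3.53e-05) and by 0.57 ± 0.22 in CD103+ cells (adjusted p = 0.0376). The difference between the responses was -1.41 ± 0.31 (adjusted p = 0.00447), and it passed in all 20 alternatives. The smaller fall in CD103+ cells lost its call in 6 of them, with median-centred libraries and without any CD103+ healthy library or CD103+ inflamed replicate 1 or 2. Relative to Ptprc, Pdia3 was lower by 2.64 ± 0.37 and 2.71 ± 0.37 on the log2 scale in CD103+ and CD11b+ cells, and the responses differed by -0.07 ± 0.52 (adjusted p = 0.918). Ptprc was higher in inflamed cells of both subsets, so a gene that fell as deposited is lower still on the Ptprc scale. On that scale 81.0% of all genes were called lower in CD103+ and 24.9% in CD11b+ cells. The lower value there is therefore no separate support for the fall. The difference between the responses was called on the deposited scale only.

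**Figure D3:**
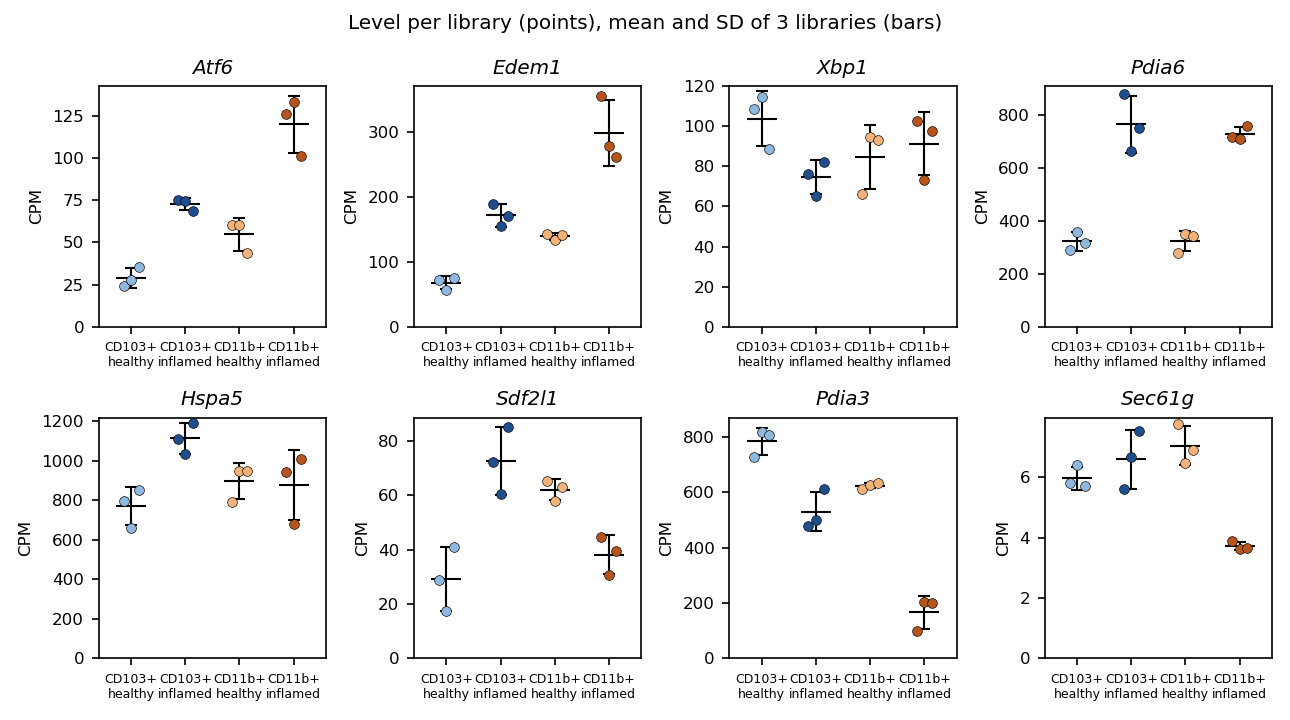
Levels of 8 of the genes in CPM (linear axes from 0), with 1 point per library, and the mean and SD of the 3 libraries of each group as bars. Atf6, Edem1 and Pdia6 are higher in inflamed than in healthy libraries of both subsets, Sdf2l1 changes order between the subsets, and Pdia3 is lowest in CD11b+ inflamed cells.

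Of the 7 ER-associated degradation genes, Edem1, a lectin that hands misfolded glycoproteins to degradation, changed most. It stood at 72.7, 56.4 and 75.8 CPM in CD103+ healthy and at 189, 155 and 171 in CD103+ inflamed libraries, and at 143, 134 and 142 in CD11b+ healthy and 356, 278 and 262 in CD11b+ inflamed libraries. It rose by 1.34 ± 0.15 in CD103+ cells (adjusted p = 5.14e-06) and by 1.09 ± 0.15 in CD11b+ cells (adjusted p = 1.47e-04), without overlap. Its relative Edem2 did not follow: it fell by 0.71 ± 0.20 in CD11b+ cells, and the difference in CD103+ cells was -0.23 ± 0.20. The retrotranslocation complex was mixed. Syvn1, the ubiquitin ligase HRD1, fell by 0.77 ± 0.21 in CD11b+ cells, whereas its partner Sel1l rose there by 0.55 ± 0.14. Derl1 fell by 0.44 ± 0.14 and 0.74 ± 0.14 in CD103+ and CD11b+ cells, and Derl2 rose by 0.50 ± 0.13 in CD11b+ cells. Herpud1, which organizes that complex, rose by 0.57 ± 0.15 in CD103+ cells. In CD11b+ cells Edem2 and Syvn1 lost their calls without CD11b+ inflamed replicate 2 (adjusted p = 0.0731 and 0.065) and Edem2 also without CD11b+ healthy replicate 2 (0.0608), and in CD103+ cells Derl1 lost its call without CD103+ inflamed replicate 1 (0.0697). Quantile normalization ended the rises of Sel1l (0.0752), Derl2 (0.195) and Herpud1 (0.0973).

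The 7 genes of the translocon and its associated TRAP complex, through which new chains enter the ER, included 3 that rose in both subsets (Sec61a1, Ssr2 and Ssr3) and 2 with a called difference between the responses (Sec61b and Sec61g). Among all genes 34.6% rose in CD103+ and 20.1% in CD11b+ cells, and 17.7% had a lower response in CD11b+ cells. The channel gene Sec61a1 went from 176 ± 9.66 to 400.2 ± 48.6 CPM in CD103+ cells (1.18 ± 0.12) and from 174 ± 9.44 to 376 ± 4.57 in CD11b+ cells (1.11 ± 0.12). Its small subunit Sec61b went from 39.5 ± 4.15 to 26.7 ± 4.67 CPM in CD11b+ cells, a fall of 0.58 ± 0.16, and was at 34.4 ± 4.84 and 38.1 ± 2.75 in CD103+ cells. Sec61g fell by 0.92 ± 0.22 in CD11b+ cells. The fall of Sec61b lost its call without CD11b+ inflamed replicate 2 (adjusted p = 0.0788). The deposited table gives Sec61g 3 gene identifiers of another database, and whether its reads are shared with other copies was not tested. In the TRAP complex Ssr3 rose by 1.24 ± 0.11 and 0.93 ± 0.11 and Ssr2 by 0.63 ± 0.12 and 0.72 ± 0.12 in CD103+ and CD11b+ cells, and Ssr1 and Ssr4 rose by 0.61 ± 0.11 and 0.51 ± 0.12 in CD103+ cells.

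The test of the difference between the responses called 6 of the 36, all with a lower response in CD11b+ cells, against 17.7% lower and 17.7% higher among all genes: Sdf2l1, Pdia3, Manf (-0.71 ± 0.22), Creld2 (-0.91 ± 0.30), Sec61b (-0.73 ± 0.23) and Sec61g (-1.05 ± 0.32). This count is close to the share over all genes. Under no alternative was Sdf2l1 or Pdia3 lost, and each of the other 4 lost its call in 3 to 7 of 20. All 4 lost it without CD103+ inflamed replicate 3, and 3 of them (all but Sec61g) without CD11b+ inflamed replicate 2 or CD103+ healthy replicate 1. Several marker lists moved with the state in one or both subsets. Of 10 type 1 dendritic cell markers 9 rose in CD103+ cells (median 1.18), as did all 5 markers shared by both dendritic cell types (median 1.15). In CD11b+ cells 3 of the 10 rose and 5 fell, and 1 of the 5 rose and 2 fell. All 15 tubule markers fell in CD103+ cells and 8 of them in CD11b+ cells, and 9 of 11 plasma and B cell markers, cells rich in ER, fell in CD11b+ cells, from a summed 1339 to 2362 CPM in healthy to 282 to 847 in inflamed libraries. Of 10 macrophage markers, 9 rose there, from a summed 866 to 1041 CPM in healthy to 1981 to 2287 in inflamed libraries. Of 10 T and NK cell markers, 9 rose in CD103+ cells (from 91.2 to 160 CPM summed in healthy to 248 to 294 in inflamed libraries), and 6 fell and 1 rose in CD11b+ cells (from 490 to 697 to 276 to 348 CPM). All 10 had a lower response in CD11b+ cells, as did 18 of 20 leukocyte and 6 of 11 plasma and B cell markers. Of 12 dissociation and immediate-early genes, 7 fell in CD11b+ cells and 6 had a lower response there, whereas 13 of the 15 tubule and 6 of the 10 macrophage markers had a higher one. None of the markers on these lists was without reads in a whole group, and their part in the results was not tested.

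The Ptprc scale changed the direction of most CD103+ results. Relative to Ptprc all 36 genes were lower in CD103+ inflamed than in CD103+ healthy cells (median -1.57), against 81.0% lower and 0.959% higher among all genes, whose median was -1.91. The 20 genes that rose as deposited were all called lower there, and Xbp1, Pdia3 and Derl1 were lower on both scales. Of the 36 lower calls, 26 held in every alternative. Relative to Ptprc, Coro1a and Laptm5 together 26 of the 36 were called lower. Ern1, Atf6, Asns, Hsp90b1, Hyou1, Pdia6, Sdf2l1, Edem1, Sec61a1 and Ssr3, all among the 20, were not. Ptprc itself was higher by 2.07 ± 0.27 in CD103+ inflamed cells, so this scale shifts every gene down by that amount. In CD11b+ cells, where Ptprc was higher by 0.73 ± 0.27, none of the 36 was called higher and 10 were called lower (median -0.56), against 1.66% and 24.9% of all genes, whose median was -0.66. The 9 genes that fell in CD11b+ cells as deposited were among those 10, and the tenth was Dnajb9. The 14 that rose as deposited were called in neither direction. The difference between the responses was called for 11 genes, all with a higher response in CD11b+ cells, against 37.2% of all genes higher and 0.480% lower.

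**Figure D4:**
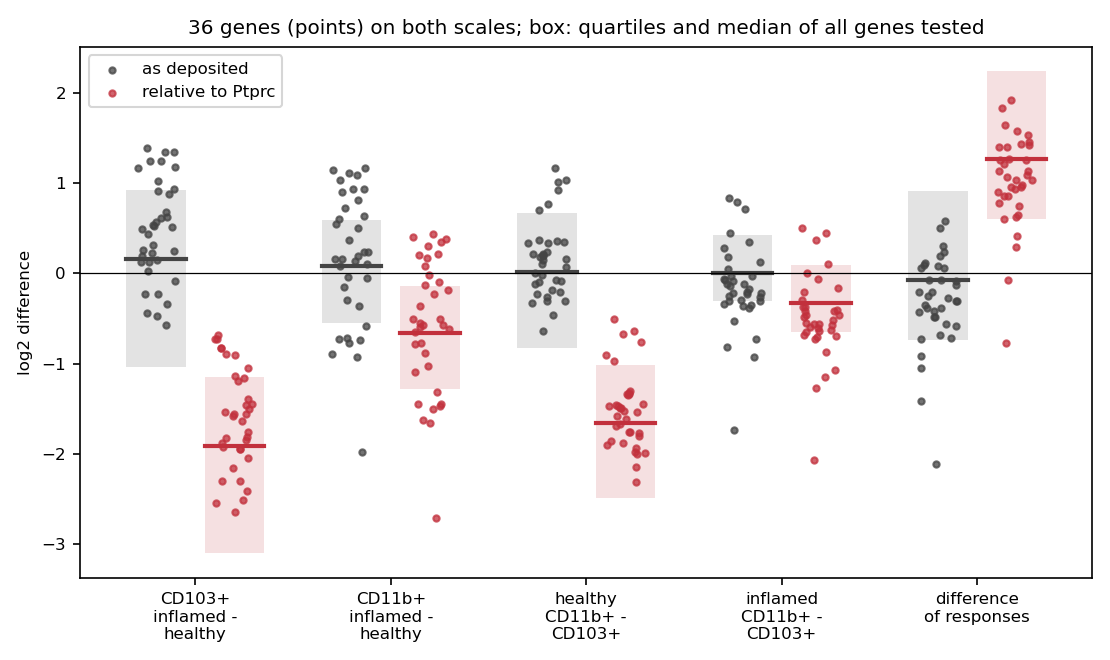
Log2 differences of the 36 genes (points) in the 5 comparisons, as deposited (grey) and relative to Ptprc (red); shaded boxes run between the quartiles of all 14180 genes tested and thick lines are their medians. Relative to Ptprc both the 36 genes and all genes move down in CD103+ cells and in the healthy kidney.

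The subsets were then compared within each state. In the healthy kidney 8 of the 36 were higher and 2 lower in CD11b+ than in CD103+ cells, against 25.4% and 24.5% of all genes, and in the inflamed kidney 3 were higher and 5 lower, against 9.66% and 8.21%. The median log2 difference of the 36 was 0.15 in healthy and -0.19 in inflamed kidney, with medians of 0.02 and 0.01 over all genes. Atf6, Edem1 and Ddit3 were higher in CD11b+ cells in both states. For Atf6 the differences were 0.92 ± 0.18 and 0.71 ± 0.18, for Edem1 1.04 ± 0.15 and 0.79 ± 0.15, and for Ddit3 0.77 ± 0.23 and 0.84 ± 0.23 in healthy and inflamed kidney. Relative to Ptprc, Atf6 was called lower in the healthy kidney (-0.76 ± 0.30, adjusted p = 0.0277), and Edem1 and Ddit3 there, and all 3 in the inflamed kidney, were called in neither direction. The lower call of Atf6 was lost with either other reference and with a replicate block. Removal of any single CD11b+ healthy library also ended it. In the inflamed kidney Atf6 lost its call without CD11b+ inflamed replicate 2 (adjusted p = 0.0573), and Ddit3 without CD11b+ inflamed replicate 2 or 3 or CD103+ inflamed replicate 1 or 3 (up to 0.103). Ddit3 also lost it under quantile normalization (0.0545).

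**Figure D5:**
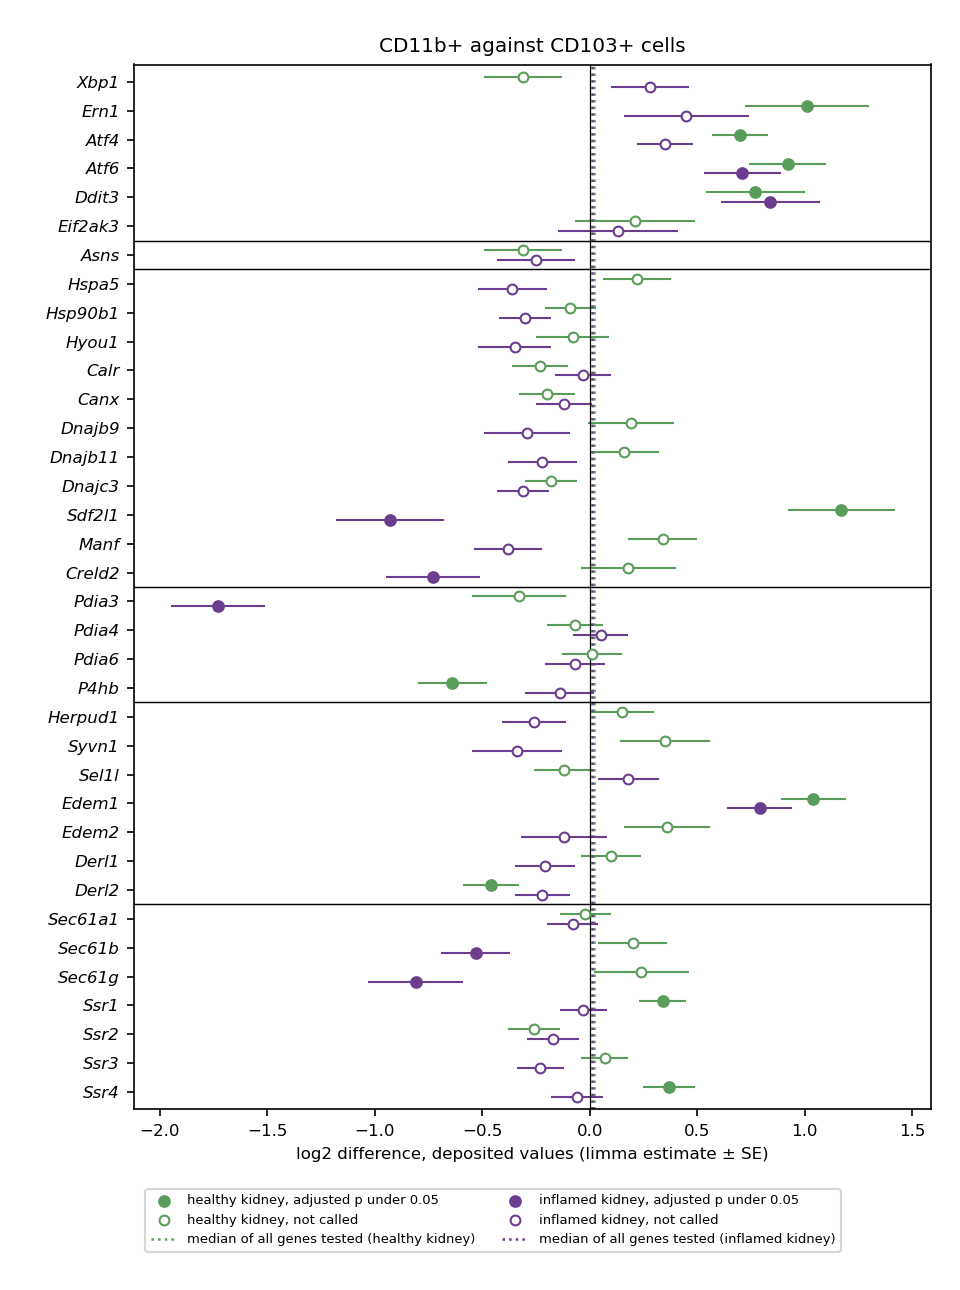
Log2 differences between CD11b+ and CD103+ cells (limma estimate ± SE, deposited values) of the 36 genes in healthy (green) and inflamed kidney (purple); filled points have an adjusted p under 0.05 and dotted lines are the medians of all genes tested. Atf6, Edem1 and Ddit3 are filled and to the right in both states, Sdf2l1 lies to the right in healthy and to the left in inflamed kidney, and Pdia3 is the lowest in inflamed kidney.

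In the healthy kidney Sdf2l1 was higher in CD11b+ cells by 1.17 ± 0.25 (adjusted p = 0.00173), Ern1 by 1.01 ± 0.29 (adjusted p = 0.0116) and Atf4 by 0.70 ± 0.13 (adjusted p = 7.29e-04). Ssr1 and Ssr4 were higher by 0.34 and 0.37, and P4hb and Derl2 were lower by 0.64 ± 0.16 and 0.46 ± 0.13 on the log2 scale. The levels of these genes in CD11b+ and CD103+ healthy libraries did not overlap. Of the 14180 genes tested, 3777 lay above and 3795 below without overlap in this comparison. Without CD103+ healthy replicate 1, Ern1, Ssr1 and Ssr4 lost their calls (adjusted p = 0.0511, 0.0813 and 0.0947). Removal of CD11b+ healthy replicate 2 ended those of Ern1 and Ssr1, of replicate 3 that of Ssr1, and of replicate 1 that of Ssr4. With only the groups compared in the fit, Ern1 (0.0604), Ssr1 (0.114), Ssr4 (0.101) and Derl2 (0.0539) lost their calls. A replicate block ended those of Ssr1 (0.0511) and Ssr4 (0.0584), and no filter that of Ssr4 (0.0502). The CD103+ healthy libraries are those with 3.19 to 5.07% tubule reads, and 9 of 12 dissociation and immediate-early genes were higher in CD11b+ healthy cells (median 1.49), where Atf3, a stress factor beside Ddit3 in the ATF4 programme, was at 542 ± 72.3 CPM against 73.5 ± 35.0. Of the markers of other cells, 10 of 11 plasma and B cell, 10 of 10 T and NK cell, 7 of 10 macrophage, 6 of 6 tested monocyte and 6 of 6 neutrophil markers were also higher in CD11b+ healthy cells. The part of any of these in the results was not tested. Relative to Ptprc 32 of the 36 were lower and none higher in CD11b+ healthy cells, against 76.3% and 2.97% of all genes, and P4hb and Derl2 were lower on both scales. Atf4, Atf6, Ssr1 and Ssr4, higher in CD11b+ healthy cells as deposited, were called lower relative to Ptprc.

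The inflamed kidney gives the comparison in which tubule markers (0 of 15 called) and Ptprc (0.34 ± 0.27, adjusted p = 0.46) passed the test in neither direction. For Ptprc this does not show equal levels. It stood at 1653, 1657 and 1459 CPM in CD11b+ inflamed and at 1269, 1304 and 1190 in CD103+ inflamed libraries. The SE is drawn from all 4 groups. The log2 SD of Ptprc was 0.73 in CD103+ healthy, against 0.07 in CD103+ inflamed and 0.11 in CD11b+ inflamed libraries. Other cells' markers did differ: 9 of 10 macrophage markers were higher in CD11b+ cells (1981 to 2287 CPM summed, against 375 to 459), as were 6 of 6 neutrophil markers (160 to 260 against 0.520 to 1.41, with Cxcr2 at 0 reads in the CD103+ libraries). The same held for 4 of 6 tested monocyte markers (2101 to 2519 against 1514 to 1885 CPM) and 5 of 11 plasma and B cell markers (282 to 847 against 94.8 to 316 CPM), and their part in the results was not tested. There Pdia3 was lower in CD11b+ than in CD103+ cells by 1.73 ± 0.22 on the log2 scale (adjusted p = 6.71e-05), Sdf2l1 by 0.93 ± 0.25 (adjusted p = 0.0181), Sec61g by 0.81 ± 0.22 (adjusted p = 0.021), Creld2 by 0.73 ± 0.22 (adjusted p = 0.0299) and Sec61b by 0.53 ± 0.16 (adjusted p = 0.0388). Pdia3 and Sdf2l1 were also the 2 genes called lower relative to Ptprc (-2.07 ± 0.37 and -1.27 ± 0.29), against 5.99% of all genes, and none was called higher, against 3.58%. Pdia3 kept its call in all 20 alternatives, between -1.91 and -1.39, and Edem1 kept its higher call as deposited. Without CD11b+ inflamed replicate 2 only Edem1 and Pdia3 were called as deposited, and Sdf2l1 also lost its call without CD103+ inflamed replicate 1 or 3. Creld2 lost its call without CD103+ inflamed replicate 1 or 3 or CD11b+ inflamed replicate 1, Sec61b without any CD103+ inflamed library or CD11b+ inflamed replicate 1, and Sec61g without CD103+ inflamed replicate 2 or 3 or any CD11b+ inflamed library. A replicate block ended the calls of Sec61b (adjusted p = 0.059) and Sec61g (0.0701), and so did no filter (0.0767 and 0.0566). Tapbp, which encodes tapasin, the partner of ERp57 in peptide loading, and stands on the list of mRNAs that IRE1 is known to cut, was at 436 ± 13.6 CPM in CD103+ and 263 ± 20.1 in CD11b+ inflamed cells, a difference of -0.73 ± 0.17 (adjusted p = 0.00792).

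The genes with an ERSE or ERSE-II match were set beside the matched genes without one. Of the 10 with a match, 6 rose and none fell in CD103+ cells (median 0.48), and of the 20 without, 9 rose and 2 fell (median 0.29). Among all genes 34.6% rose and 27.8% fell there. In CD11b+ cells 4 of the 10 rose and 3 fell (median 0.06), against 6 and 5 of the 20 (median 0.17) and 20.1% and 15.8% of all genes. Relative to Ptprc, all 10 and all 20 were called lower in CD103+ cells (medians -1.59 and -1.79), as were 81.0% of all genes. In CD11b+ cells 3 of the 10 and 6 of the 20 were called lower on that scale and none higher, against 24.9% and 1.66% of all genes. Atf6, Derl1, Hyou1, Manf, Sec61a1 and Ssr2 had no window and are in neither set. In CD103+ cells Derl1 fell and the others of these rose. Genes with the element printed above went both ways: Pdia6 rose in both subsets, and Creld2 fell in CD11b+ cells. The share of risers with and without a match was not tested.

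Other genes of the secretory route were counted from further lists, against the 34.6% higher and 27.8% lower of all genes in CD103+ cells and the 20.1% and 15.8% in CD11b+ cells. Of 15 genes that recognize or cut signal peptides, 9 rose and 2 fell in CD103+ cells and 5 rose in CD11b+ cells. Spcs3, a signal peptidase subunit, went from 182 ± 12.8 to 562 ± 8.68 CPM in CD103+ cells (1.63 ± 0.12) and from 179.7 ± 18.5 to 424 ± 21.1 in CD11b+ cells (1.24 ± 0.12). Sec62, which serves post-translational entry, fell by 1.5 ± 0.15 in CD103+ cells. Of 13 genes of oligosaccharide transfer and glucose trimming, 6 rose and 3 fell in CD103+ and 7 rose and 2 fell in CD11b+ cells. Within one enzyme complex, the catalytic subunit Stt3a rose by 1.16 ± 0.12 and 1.11 ± 0.12 in CD103+ and CD11b+ cells, while the subunit Ddost went from 106 ± 15 to 38.4 ± 3.90 CPM and from 127 ± 7.80 to 32.0 ± 6.61.

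Of 18 tested genes of COPII coats and ER retrieval, 10 rose and 4 fell in CD103+ and 11 rose and 1 fell in CD11b+ cells. The coat gene Sec24c rose by 1.32 ± 0.12 and 1.12 ± 0.12, and Sec31a rose by 1.0 ± 0.11 in CD11b+ cells. Sec24d was lower in CD11b+ than in CD103+ cells by 1.47 ± 0.22 in healthy and by 1.44 ± 0.22 in inflamed kidney on the log2 scale. Of 19 tested further ER folding genes, 7 rose and 4 fell in CD103+ and 5 rose and 2 fell in CD11b+ cells. The isomerase-like gene Txndc5 rose by 1.35 ± 0.12 in CD103+ cells and its response was lower in CD11b+ cells by 1.25 ± 0.17 on the log2 scale (adjusted p = 3.98e-04). Pdia5 was at 14.3 ± 6.37 and 17.7 ± 3.28 CPM in CD103+ healthy and inflamed cells, against 2.78 ± 1.06 and 2.19 ± 0.558 in CD11b+ cells.

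Of 16 tested genes of the ATF4 programme, 6 rose and 4 fell in CD103+ and 5 rose and 4 fell in CD11b+ cells. In CD103+ cells these shares are close to the 34.6% and 27.8% over all genes, and those in CD11b+ cells stand beside 20.1% and 15.8%. Nupr1, a stress-induced chromatin protein, was at 162 ± 15.4 CPM in CD11b+ inflamed and 7.75 ± 0.573 in CD103+ inflamed cells, a difference of 4.38 ± 0.26 (adjusted p = 4.52e-08). Cth, which makes cysteine, fell by 3.77 ± 0.37 in CD103+ cells, from 85.2 ± 15.9 to 6.85 ± 4.05 CPM. All 15 tubule markers fell in the same comparison (median -3.58), and the part of tubule RNA in the fall of Cth was not tested. Of 7 tested mRNAs that IRE1 is known to cut, 2 rose and 3 fell in CD103+ and 2 rose and 1 fell in CD11b+ cells. Bloc1s1, the best known of them, went from 14.8 ± 2.80 to 6.01 ± 0.510 CPM in CD103+ cells (-1.29 ± 0.24) and from 12.0 ± 3.23 to 5.09 ± 0.932 in CD11b+ cells (-1.22 ± 0.24), whereas the integrin gene Itgb2, on the same list, rose by 1.96 ± 0.25 and 1.22 ± 0.25.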

How the data were processed

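RNA was measured in 12 libraries of sorted kidney dendritic cells. Per the labels' protocols, cDNA came from the SMARTer Ultra Low RNA kit and was sequenced as single reads; the submitters' processing notes name STAR 2.0.4b, Subread, featureCounts 1.4.5 and edgeR, without role or order. The genome build, the strand setting and the treatment of shared reads are not given in the sources used here. The authors deposited log2 values; in every library 100% of them were log2 of whole reads (within 0.05) plus 0.5 per 1000000 reads of a scaled library (the CPM scale), and the scaling factors were 0.921 to 1.081. CPM in the text are without the added 0.5. Of 26281 lines 160 repeats were dropped. Exon lengths and gene positions came from GENCODE M21 (GRCm38) by gene ID (26004 of 26121 matched), and promoters from RefSeq.

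Genes with a deposited value of 0 or more in 3 or more libraries entered a limma fit (version 3.58.1, R 4.3.3; 1 mean per group over 12 libraries, trended robust empirical Bayes, two-sided, Benjamini-Hochberg over all genes tested, threshold 0.05), as deposited and after subtracting each library's Ptprc log2 value. The script was tested on simulated data. Per-library values are given for the sensors and factors and for the 3 largest differences of each comparison between 2 groups; of each other list up to 2 genes per comparison with the smallest adjusted p among those called are named, and Atf3, Tapbp and Pdia5 fall under that rule. The genes, lists and rules were chosen with earlier results of these data known. The labels call the libraries biological replicates but do not say that a number marks the mouse, so the fit has no replicate block. Alternatives were other pseudocounts, filters, scalings, references and samples, leaving out each library, and voom weights, added after seeing the data. The other tables came from pandas 2.3.3 and numpy 2.4.6 under Python 3.11.15, and the plots from matplotlib 3.10.9. Levels set by 3 reads cover counting error only.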

Additional observations from a re-analysis of the deposited data

Results flagged for a closer look

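The responses of the subsets to nephritis differed, by the limma test of the difference itself, for 6 of the 36 genes, a share close to that of all genes with a lower response in CD11b+ cells (17.7%, with another 17.7% higher). For each, the log2 response in CD11b+ cells less that in CD103+ cells was below 0 as deposited. The difference was -2.11 for Sdf2l1, -1.41 for Pdia3, -1.05 for Sec61g, -0.91 for Creld2, -0.73 for Sec61b and -0.71 for Manf. Relative to Ptprc the same differences were -0.77, -0.07, 0.29, 0.42, 0.60 and 0.62, and none was called. Sec61g, Manf, Creld2 and Sec61b each lost the call without CD103+ inflamed replicate 3 (adjusted p = 0.0556, 0.0616, 0.0842 and 0.0598), and the last 3 also without CD11b+ inflamed replicate 2 (0.0603, 0.084 and 0.0694) or CD103+ healthy replicate 1 (0.0575, 0.0724 and 0.0569). Single libraries of the CD11b+ healthy group ended the call of Manf (replicate 2), Creld2 (1 or 3) and Sec61b (2), CD11b+ inflamed replicate 1 that of Creld2, and CD103+ healthy replicate 2 or CD103+ inflamed replicate 2 that of Sec61b. With no filter Creld2, Sec61b and Sec61g lost the call (adjusted p = 0.0546, 0.0527 and 0.0552). The responses of 13 of 15 tubule, 6 of 11 plasma and B cell, 10 of 10 T and NK cell and 6 of 10 macrophage markers differed as well, and their part was not tested.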

How the results depend on the processing

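Within each scale no alternative reversed a result. Between the scales, 20 genes called higher in inflamed CD103+ cells as deposited were called lower relative to Ptprc, and so were 4 (Atf4, Atf6, Ssr1 and Ssr4) in CD11b+ cells of the healthy kidney. Of the 36 lower calls relative to Ptprc in inflamed CD103+ cells, 26 held in every alternative. Of the 32 in CD11b+ cells of the healthy kidney 31 held, all but that of Atf6. The settings below changed a count of called genes by more than 1.5 times. As deposited, the 3 genes lower in inflamed CD103+ cells became 1 with median-centred libraries and 5 with quantile normalization. The 8 higher and 2 lower in CD11b+ cells of the healthy kidney became 5 and 1 when only the groups compared were fitted. The 5 lower in the inflamed kidney became 3 with no filter and 8 with median-centred libraries, and the 6 lower responses became 3 with no filter and 10 with quantile normalization. Relative to a leukocyte list in place of Ptprc, 4 genes were higher in inflamed CD11b+ cells, 1 (Edem1) in CD11b+ cells of the inflamed kidney, and the responses differed for 25 higher and 1 lower. Relative to Ptprc, Coro1a and Laptm5 together, 3 were higher and 4 lower in inflamed CD11b+ cells, and 21 responses were higher. Leaving out 1 library at a time gave, as deposited, 0 to 4 lower in inflamed CD103+ cells, 4 to 9 lower in inflamed CD11b+ cells (4 without CD11b+ inflamed replicate 2), 5 to 8 higher in CD11b+ cells of the healthy kidney (5 without CD103+ healthy replicate 1), 1 to 4 higher and 1 to 5 lower in those of the inflamed kidney, and 0 to 2 higher and 2 to 8 lower responses. Relative to Ptprc it gave 4 to 15 lower in inflamed CD11b+ cells, 1 to 10 lower in CD11b+ cells of the inflamed kidney (10 without CD103+ healthy replicate 2) and 3 to 28 higher responses. As deposited, 14 of the 20 rises in CD103+ cells and 10 of the 14 in CD11b+ cells held in every alternative, and so did 0 of the 3 falls in CD103+ and 4 of the 9 in CD11b+ cells. The cause of these changes was not tested.

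Whether a replicate number marks the mouse is not stated, and the numbers were not taken to pair the samples, because deviations of same-numbered CD103+ and CD11b+ libraries correlated between -0.15 and 0.15. With a replicate block 3 genes were lower in CD11b+ cells of the inflamed kidney as deposited, and 6 responses were higher relative to Ptprc. As deposited the block ended the calls of Ssr1 (adjusted p = 0.0511) and Ssr4 (0.0584) in the healthy kidney, of Sec61b (0.059) and Sec61g (0.0701) in the inflamed kidney, of the Sec61g difference of responses (0.057) and of the Xbp1 fall in CD103+ cells (0.05). The count model that had been planned was not run, and limma with voom weights on the recovered reads, chosen after seeing the data, was run in its place. With 3 libraries per group, differences smaller than the spread between them were not detectable.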
